A study of Homo sapiens with 4 samples.

Results

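The FOS and JUN families comprise FOS, FOSB, FOSL1 and FOSL2, and JUN, JUNB and JUND. These 7 genes were found by their GENCODE symbols among 57500 gene identifiers in the counts of parental SUM159 cells and 3 NOS2KO SUM159 clones, and each was compared between the parental library and every clone. SUM159 is a metaplastic, triple-negative breast cancer cell line, and NOS2 encodes the inducible nitric oxide synthase iNOS. The NOS2KO cells had received a NOS2 double nickase plasmid, had survived puromycin, and were picked as clones by immunoblot for iNOS and by an assay of nitrite and nitrate. The labels give no treatment, plasmid or puromycin for the Parental Control, and both groups grew in DMEM with serum. Each library stands for 1 culture, and each NOS2KO library for 1 clone (numbers 1, 5 and 6), so the spread measured here is the spread between 3 clones, which may be partly technical, and it was assumed to hold for the single parental library.

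The products of these genes are bZIP proteins that pair through a leucine zipper to form the transcription factor AP-1. JUN proteins can pair with each other or with FOS proteins, whereas FOS proteins need a partner such as a JUN protein. FOS, FOSB and JUN are immediate-early genes, whose transcripts appear quickly after growth factors or stress and decay quickly, and the kinase JNK phosphorylates the c-Jun protein. In breast cancer cells, FOSL1 (Fra-1) is known for its link to the mesenchymal state.

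The libraries held between 90467395 and 122171287 counts on genes. NOS2 had 2 counts in the parental library, against 3 in clone 1, 1 in clone 6 and 18 in the library labelled clone 5, too few for its mRNA to check the labels. Where 3 clone values are given without names, they stand in the order of clone 1, the library labelled clone 5 and clone 6. The mesenchymal markers VIM, ZEB1, CDH2, FN1 and AXL were all detected, from 39.5 CPM (counts relative to the library size, scaled by the trimmed mean of M values, TMM) for ZEB1 in clone 1 to 3855 CPM for VIM in the same clone. ESR1 stayed at or below 0.741 CPM and PGR at or below 0.0281 CPM, while ERBB2 lay between 48.3 and 106.2 CPM. Of these 8 line markers, 7 were tested and 0 met the criterion used below, a log2 fold change beyond 1 at an unadjusted p under 0.05. Of 6 markers of leukocytes and endothelium, 5 or 6 were above 0 in each library, with CD3E at 0 in the parental library and clone 6. Their summed level was 33.6 CPM in the parental library and 64.0 to 124.1 CPM in the clones. The 5 tested markers went both ways. CD14 was lower in every clone, at 12.8 CPM in the parental library and 2.29, 4.28 and 11.3 CPM in the clones, as was PECAM1, at 16.1 CPM and 13.9, 7.06 and 8.64 CPM. CDH5 (0.0111 CPM in the parental library and 0.105 to 3.49 CPM in the clones) and VWF (0.210 CPM and 0.279 to 3.80 CPM) were higher in every clone. PTPRC, which encodes CD45, was also higher, at 4.45 CPM in the parental library, against 68.4 in clone 1, 41.7 in clone 6 and 105.4 in the library labelled clone 5 (log2 fold change 4.01, SE 0.56, edgeR adjusted p = 0.282, DESeq2 adjusted p = 3.2e-07), and it alone of the 5 tested met the criterion. The part of these markers in the results that follow was not tested. Clone 1 stood apart from the other clones over genes with many counts: the SD of its log2 ratios was 1.04 to the library labelled clone 5 and 0.99 to clone 6, near the 1.06 to the parental library, whereas the library labelled clone 5 and clone 6 differed by an SD of 0.61. In bulk RNA, fewer cells that express a gene and less of its RNA per cell cannot be told apart.

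The sequence just before the start site is shown for FOS, FOSB and JUN, the members that were higher in every clone by over 1 on the log2 scale. It comes from RefSeq promoters on GRCh38.p14, where 6 of the 7 members matched. Each run gives the 250 bases before the RefSeq start, 5′ to 3′ on the strand of the gene, at chr14:75278578-75278827 (plus strand) for FOS, chr19:45467746-45467995 (plus strand) for FOSB and chr1:58784048-58784297 (minus strand) for JUN. Capitals mark matches to TGACGT, the core of the cyclic AMP response element (CRE), or to the CRE-type octamer TGACNTCA. The GENCODE gene begins 54 bases earlier than the RefSeq start for FOS, 1 base earlier for FOSB and 280 bases earlier for JUN.
FOS: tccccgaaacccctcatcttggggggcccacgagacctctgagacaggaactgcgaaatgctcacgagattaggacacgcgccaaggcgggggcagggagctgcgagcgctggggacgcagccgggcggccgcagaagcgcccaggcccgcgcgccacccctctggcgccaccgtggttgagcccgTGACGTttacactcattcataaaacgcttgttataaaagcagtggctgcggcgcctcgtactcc
FOSB: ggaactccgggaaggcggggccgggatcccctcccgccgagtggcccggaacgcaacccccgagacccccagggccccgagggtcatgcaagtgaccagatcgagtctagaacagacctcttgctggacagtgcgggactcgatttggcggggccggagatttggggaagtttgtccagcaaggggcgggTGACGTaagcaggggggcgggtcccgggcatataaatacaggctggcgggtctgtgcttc
JUN: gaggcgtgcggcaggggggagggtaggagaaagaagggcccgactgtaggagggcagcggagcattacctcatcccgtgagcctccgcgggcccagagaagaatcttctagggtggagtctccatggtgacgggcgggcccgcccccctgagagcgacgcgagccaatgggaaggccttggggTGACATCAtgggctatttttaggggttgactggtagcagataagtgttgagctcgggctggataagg

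The windows searched ran from 250 bases before to 50 bases after the start, on both strands. In FOS, the CRE core began at -64 and TATAAA at -33 from the start. In FOSB, the same pair of motifs lay at -60 and -30. JUN held the octamer TGACATCA at -67 and no TATAAA in this window. The promoters of FOS and FOSB thus shared 2 motifs in nearly the same places. Among the others, FOSL2 held TGACGT at -66 and the AP-1 site TGACTCA at 5 bases after the start, JUNB held TATAAA at -31, and JUND held the full octamer TGACGTCA at -200 and the CRE core on the reverse strand at -87. Over 35116 RefSeq promoters of the same length, 7.98% held TGACGT, 7.72% held TGACNTCA (which contains TGACGT where N is G), 7.71% held the AP-1 site TGANTCA and 11.5% held TATAAA. A CArG box, the binding site of serum response factor, matched in 1.29% of promoters and in none of the 6 windows, which says only that those letters are not there. A match is a description and not a binding site.

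FOS, FOSB and JUN mRNA was higher in all 3 clones than in the parental library, JUNB was slightly higher, FOSL1 was lower, and FOSL2 and JUND lay within the range of the clones. With 1 parental library, 28.6% of all genes tested were higher in every clone and 30.5% were lower in every clone. None of the 7 passed an adjusted p of 0.05 by edgeR (quasi-likelihood test, Benjamini-Hochberg adjustment), where 0.00444% of the 22511 genes tested did. In the same test 1 member, JUN, met the criterion, as did 4.24% of all genes tested as higher and 5.34% as lower. By DESeq2's Wald test 3 members passed after adjustment, FOS, FOSB and JUN. DESeq2 called 3.13% of its 17710 genes higher and 3.05% lower, and no member was among the lower ones.

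**Figure D1:**
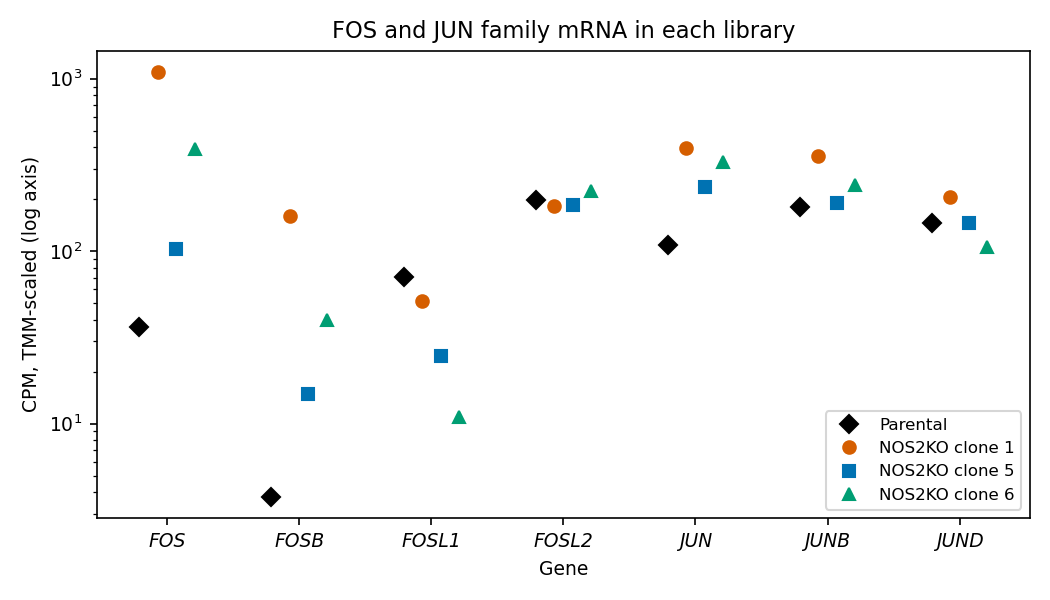
TMM-scaled CPM (log axis) of the 7 genes in the parental library (black diamonds), NOS2KO clone 1 (orange circles), clone 5 (blue squares) and clone 6 (green triangles), 1 library each. The parental diamond lies below all clones for FOS, FOSB, JUN and JUNB, above all clones for FOSL1, and among them for FOSL2 and JUND.

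FOS (ENSG00000170345, chromosome 14 of GRCh38 from 75278774 to 75282230) encodes c-Fos, which activates transcription only as a dimer. Its level was 36.5 CPM in the parental library, against 1094 in clone 1, 389.7 in clone 6 and 102.4 in the library labelled clone 5. All clones lay above the parental library, and clone 1 stood far above the others. The clones averaged 528.6 ± 510.0 CPM (SD, n = 3), an SD nearly as large as the mean. Against the parental library, the log2 ratio was 4.91 (95% exact counting interval 4.86 to 4.96) in clone 1, 3.42 (3.37 to 3.47) in clone 6 and 1.49 (1.43 to 1.55) in the library labelled clone 5. These intervals do not overlap, so the clones differed from each other beyond counting error, by 3.42 on the log2 scale between clone 1 and the library labelled clone 5. The fitted log2 fold change of NOS2KO against Parental was 3.86 (SE 1.23, edgeR adjusted p = 0.452), and 2.76 without clone 1. By DESeq2 it was 3.88, with an adjusted p of 0.0183, the smallest in a range that reached 0.763 over the alternatives.

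FOSB (ENSG00000125740, chromosome 19 from 45467995 to 45475179) encodes a close relative of c-Fos that also has a strong activation domain. It was at 3.77 CPM in the parental library, against 159.2 in clone 1, 39.7 in clone 6 and 14.8 in the library labelled clone 5. The order of the libraries was that of FOS. All clones lay above the parental library, as they did for 28.6% of all genes tested. The log2 ratio was 5.40 (5.24 to 5.56) in clone 1, 3.40 (3.24 to 3.56) in clone 6 and 1.97 (1.80 to 2.15) in the library labelled clone 5. Over the 3 clones, the log2 fold change was 4.24 (SE 1.29, edgeR adjusted p = 0.448), and DESeq2 gave 4.27 with an adjusted p of 0.0111 in a range up to 0.754 over the alternatives. Without clone 1 the edgeR value was 2.86. FOSB had 341 counts in the parental library, and it reached 10 CPM only in the clones. Per exon length (TPM, the level of a gene per length relative to the whole library), FOS exceeded FOSB by a log2 ratio between 3.56 and 4.07 in the 4 libraries, so that the FOS to FOSB ratio of the parental library (4.05) lay inside the range of the clones.

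FOSL1 (ENSG00000175592, chromosome 11 from 65892049 to 65900573) encodes Fra-1, which lacks the strong activation domain of c-Fos. Its level ran the other way, with 70.5 CPM in the parental library, against 51.1 in clone 1, 10.9 in clone 6 and 24.6 in the library labelled clone 5. Every clone was below the parental library, clone 1 least so. The log2 ratio was -0.46 (-0.52 to -0.41) in clone 1, -2.70 (-2.79 to -2.61) in clone 6 and -1.52 (-1.58 to -1.45) in the library labelled clone 5. Over the 3 clones, the log2 fold change was -1.29 (SE 0.85, adjusted p = 0.572). Without clone 1 it was -1.99.

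FOSL2 (ENSG00000075426, chromosome 2 from 28392448 to 28417312), which encodes Fra-2, had nearly the same level in all libraries. It was at 198.3 CPM in the parental library, against 182.7 in clone 1, 222.5 in clone 6 and 186.3 in the library labelled clone 5. The parental library lay inside the range of the clones, whose mean was 197.2 ± 22.0 CPM (SD, n = 3). The fitted log2 fold change was -0.01 (SE 0.29, adjusted p = 0.994), with a sign that turned under RLE or upper quartile scaling.

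JUN (ENSG00000177606, chromosome 1 from 58780788 to 58784327) encodes c-Jun, the main JNK substrate of the families. It was at 107.8 CPM in the parental library, against 398.3 in clone 1, 328.2 in clone 6 and 234.4 in the library labelled clone 5. All clones were above the parental library, and they lay closer together than for FOS, at 320.3 ± 82.2 CPM (SD, n = 3). The log2 ratio was 1.88 (1.85 to 1.92) in clone 1, 1.61 (1.57 to 1.64) in clone 6 and 1.12 (1.09 to 1.15) in the library labelled clone 5. The fitted log2 fold change was 1.57 (SE 0.40, edgeR adjusted p = 0.351), a fold of 2.97. DESeq2 gave 1.59 with an adjusted p of 0.0301, in a range up to 0.749 over the alternatives. JUN was the only member to meet the criterion, as did 4.24% of all genes tested in the higher direction and 5.34% in the lower. The count is 1 of 7 members, and it moved to 3 when genes of low count were kept and to 2 with a minimum of 10 CPM. There the added member was FOSB, which passes that minimum only through the clones. The share of all genes that met the criterion under those settings was not taken.

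JUNB (ENSG00000171223, chromosome 19 from 12791496 to 12793315) encodes a weaker activator than c-Jun. Its level was 181.1 CPM in the parental library, against 354.8 in clone 1, 241.1 in clone 6 and 189.2 in the library labelled clone 5. All clones lay above the parental library, as they did for 28.6% of all genes tested. The library labelled clone 5 was only 0.06 above the parental library on the log2 scale (0.03 to 0.09). The clones together gave 0.53 on the log2 scale (SE 0.44, adjusted p = 0.678), close to its SE, with 0.25 when clone 1 was left out. Of the 1820 exon bases of JUNB, 259 (14.2%) are shared with HOOK2 on the opposite strand, which had 2004 to 3161 counts against 16366 to 40687 for JUNB. The strand setting of the counting is not given in the sources used here, and reads in that overlap cannot be told apart without strand.

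JUND (ENSG00000130522, chromosome 19 from 18279760 to 18281622) encodes the JUN protein known for its steady expression. It was at 146.3 CPM in the parental library, against 205.0 in clone 1, 105.8 in clone 6 and 145.3 in the library labelled clone 5. The parental library lay inside the range of the clones, next to the library labelled clone 5. The clones together gave 0.06 on the log2 scale (SE 0.44, adjusted p = 0.971), and it was -0.22 without clone 1.

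**Figure D2:**
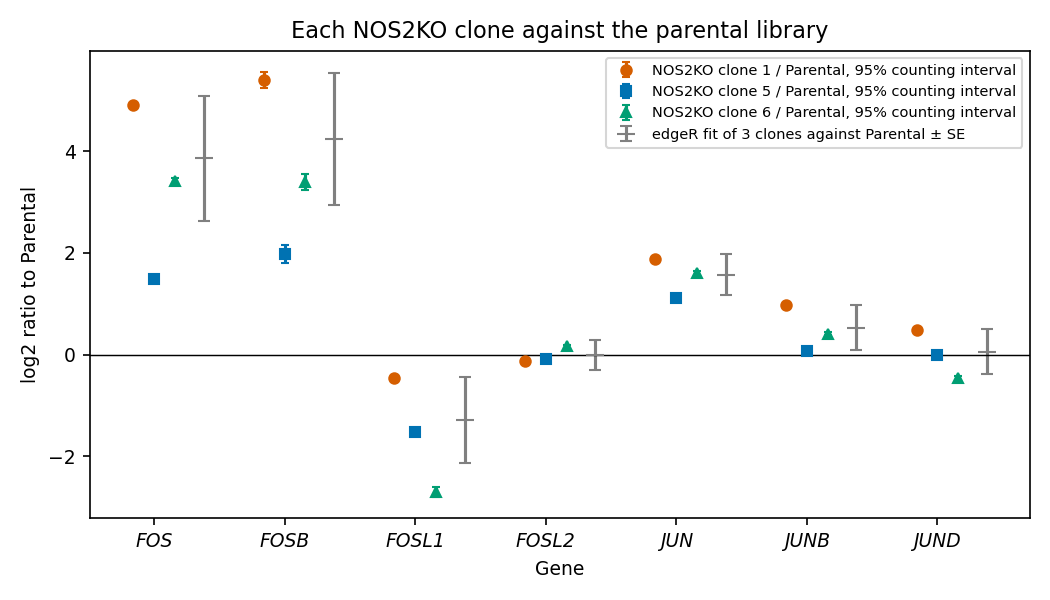
Log2 ratio of each NOS2KO clone to the parental library for the 7 genes (coloured points, bars are 95% exact counting intervals), with the edgeR log2 fold change of the 3 clones against Parental in grey (bars are ± SE). For FOS and FOSB the clones span from 1.49 to 5.40, whereas for JUN they lie between 1.12 and 1.88 and for FOSL2 near 0.

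The 3 ratios of a gene share the 1 parental library, so they are not independent of each other. In clone 1, 3 members were above a log2 ratio of 1 (FOS, FOSB and JUN), as were 17.1% of all genes, and 0 were below -1, as were 20.2%. In the library labelled clone 5, the same 3 members were above 1 (21.3% of all genes) and 1, FOSL1, was below -1 (14.7%). In clone 6, again 3 were above 1 (19.3%) and FOSL1 was below -1 (16.7%). Above 1 in every clone were 3 of 7 members against 7.67% of genes tested, and below -1 in every clone were 0 members against 6.29%. Higher in every clone, by any amount, were 4 members (FOS, FOSB, JUN and JUNB) against 28.6% of genes, and lower in every clone was 1 (FOSL1) against 30.5%. Among the 10709 genes that reached 10 CPM in a library, 4.26% were above 1 in every clone. In clone 1, 18 of those genes had a larger ratio than FOS and 398 a larger one than JUN. In the library labelled clone 5, 620 genes were above FOS and 959 above JUN. No rank is given for FOSB, since it reached 10 CPM only in the clones. FOSB and other such genes are still among those counted above FOS and JUN. The median log2 fold change of the 7 members was 0.53, against 0.10 over all genes tested, and it was 0.25 without clone 1. The median of their log2 ratios was 0.97 in clone 1, 0.41 in clone 6 and 0.06 in the library labelled clone 5.

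The makeup of the AP-1 mRNA pool was compared per length, in TPM. The 7 genes summed to 1081 TPM in the parental library, against 2748 in clone 1, 1627 in clone 6 and 1283 in the library labelled clone 5. The sum was thus higher in each clone, least in the library labelled clone 5. FOS made up 3.95% of the sum in the parental library, against 40.4% in clone 1, 27.0% in clone 6 and 9.83% in the library labelled clone 5. FOSL1 held 13.1% in the parental library and 3.24%, 4.06% and 1.29% in clone 1, the library labelled clone 5 and clone 6. FOSL1 exceeded FOS in the parental library and FOS exceeded FOSL1 in every clone. The log2 ratio of FOS to FOSL1 was -1.73 in the parental library and 3.64, 1.28 and 4.39 in the clones. JUNB was the member with the largest share in the parental library (34.8%), in clone 6 (29.7%) and in the library labelled clone 5 (32.3%), and FOS was the largest in clone 1. These ranks depend on the length scaling, since in CPM shares without length FOSL2 led in the parental library.

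**Figure D3:**
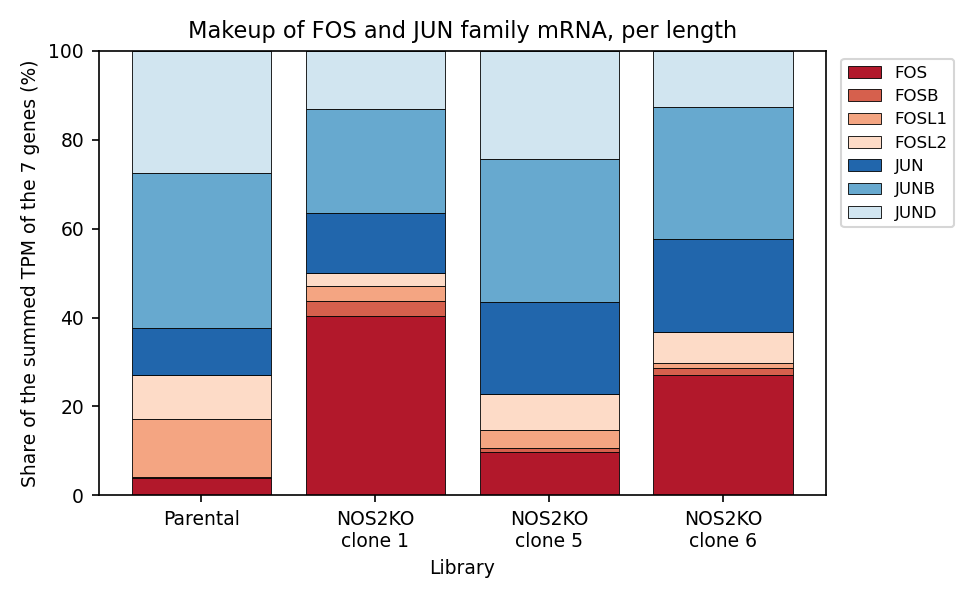
Share of each gene (%) in the summed TPM of the 7 genes, 1 bar for each library, FOS family in reds and JUN family in blues. FOS takes 3.95% of the parental bar and 9.83% to 40.4% of the clone bars, and FOSL1 takes 13.1% of the parental bar and 4.06% or less of the others.

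Within the FOS family alone, FOS was 14.6% of the summed TPM in the parental library, where FOSL1 was 48.5% and FOSL2 36.0%. In clone 1, FOS was 80.6% and FOSL1 6.47%, in the library labelled clone 5 they were 43.1% and 17.8%, and in clone 6 they were 73.2% and 3.50%. The FOS family as a whole was at 291.8 TPM in the parental library and 292.7 TPM in the library labelled clone 5, so that in this pair of libraries the makeup differed while the sum was nearly the same. Clone 1 reached 1377 TPM and clone 6 598.9 TPM. Within the JUN family, JUN was 14.6% of the sum in the parental library and 26.9%, 26.7% and 32.9% in clone 1, the library labelled clone 5 and clone 6, a narrower range than for FOS. JUND went from 37.7% to 26.4%, 31.4% and 20.1% in the same order, and JUNB stayed between 41.9% and 47.7%.

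Among 13 other bZIP genes, whose products can pair with FOS or JUN proteins or compete for their sites, 5 met the criterion as lower in the clones and 1 as higher. This was 46.2% of the list, against 9.58% of all genes tested, with a median log2 fold change of -1.32. MAFF, a small MAF protein without an activation domain, was at 120.2 CPM in the parental library, against 16.3 in clone 1, 8.02 in clone 6 and 8.56 in the library labelled clone 5 (log2 fold change -3.45, SE 0.51, adjusted p = 0.259). JDP2, a repressor that pairs with JUN proteins, was at 103.7 CPM in the parental library and 36.3, 43.3 and 45.4 CPM in the clones (log2 fold change -1.32, SE 0.28, adjusted p = 0.310). The small MAF genes MAFK (-1.33, SE 0.37) and MAFG (-1.19, SE 0.36, named outside the rule after its values were seen) and the stress factor ATF4 (-1.39, SE 0.42) were the other 3 lower genes. MAF, a large MAF protein with an activation domain, was higher, with 11.3 CPM in the parental library and 40.4, 77.3 and 45.3 CPM in the clones (log2 fold change 2.26, SE 0.46, adjusted p = 0.332). No gene of the list passed the edgeR test after adjustment, and by DESeq2 MAFF and JDP2 passed as lower and MAF as higher. DESeq2 passed 3.05% of its 17710 genes as lower and 3.13% as higher.

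Of 16 genes of the JNK cascade, 1 met the criterion (6.25% of the list, against 9.58% of all genes), and the median log2 fold change was -0.34. That gene was MAP3K10, a mixed lineage kinase upstream of JNK, at 49.8 CPM in the parental library and 22.1, 20.5 and 18.3 CPM in the clones (log2 fold change -1.30, SE 0.29, edgeR adjusted p = 0.326, DESeq2 adjusted p = 0.0216). MAPK8, which encodes JNK1, was at 33.1 CPM in the parental library and 21.1, 18.5 and 18.4 CPM in the clones (log2 fold change -0.77, SE 0.30, adjusted p = 0.420). MAPK9, which encodes JNK2, had 67.5 CPM in the parental library and 48.7 to 75.8 CPM in the clones, on both sides of it. The mRNA of the kinases says nothing of their activity.

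Among 12 factors that act at the FOS and JUN promoters, 2 met the criterion (16.7% of the list, against 9.58% of all genes) and the median log2 fold change was -0.04. ELK4, a ternary complex factor that binds with serum response factor, was at 71.7 CPM in the parental library and 36.4, 36.1 and 34.3 CPM in the clones (log2 fold change -1.01, SE 0.26, adjusted p = 0.332). MEF2C, a MADS box factor, was at 10.0 CPM in the parental library and 17.2, 33.2 and 29.3 CPM in the clones (log2 fold change 1.41, SE 0.46, adjusted p = 0.412). No gene of 12 that act on the decay of FOS and JUN mRNA or protein, or hold the proteins in check, met the criterion with edgeR. None passed after adjustment with edgeR or DESeq2, and the median was -0.11. ZFP36, whose product drives the decay of AU-rich mRNAs and which was named after its values were seen, was at 12.9 CPM in the parental library, against 122.3 in clone 1, 48.3 in clone 6 and 21.5 in the library labelled clone 5. It kept the order of the libraries seen for FOS, with a log2 fold change of 2.31 (SE 0.96, adjusted p = 0.497). With DESeq2, ZFP36 met the criterion (log2 fold change 2.34, DESeq2 unadjusted p = 0.0163). The share of all genes that met it with DESeq2 was not taken.

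Of 18 other immediate-early genes, 2 met the criterion as higher and 1 as lower (16.7% of the list, against 9.58% of all genes tested in either direction), with a median log2 fold change of 0.68. CTGF, a secreted matricellular protein, was at 15.0 CPM in the parental library, against 157.2 in clone 1, 82.1 in clone 6 and 71.5 in the library labelled clone 5 (log2 fold change 2.79, SE 0.53, adjusted p = 0.332). KLF6, a zinc finger factor, was at 40.7 CPM in the parental library and 192.4, 96.8 and 94.1 CPM in the clones (1.65, SE 0.52, adjusted p = 0.404). KLF10, of the same family, was lower, with 171.8 CPM in the parental library and 54.0, 57.3 and 87.7 CPM in the clones (-1.37, SE 0.39, adjusted p = 0.342). These genes did not all lie on 1 side of the parental library: 6 of the 18 were higher in every clone, 4 were lower in every clone and 8 lay on both sides of the parental library. Of all genes tested, 28.6% were higher in every clone and 30.5% were lower in every clone. MYC, which was named after its values were seen, had 604.4 CPM in the parental library, against 672.2 in clone 1, 220.0 in clone 6 and 129.0 in the library labelled clone 5.

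Genes whose levels followed those of a member most closely over the 4 libraries were found by the distance between centred log2 values, among 9821 genes other than the 7 members with a mean of at least 10 CPM. EGR1, an immediate-early zinc finger gene, was the nearest of these to FOS (distance 0.769), at 65.0 CPM in the parental library, against 1169 in clone 1, 359.6 in clone 6 and 95.3 in the library labelled clone 5. Its log2 fold change was 3.06 (SE 1.30, adjusted p = 0.522), so, as for FOS, the clones differed widely. EPHB6, an ephrin receptor, was the nearest to FOSB, at 0.961, the largest such distance for any member. EPHB6 rose from 0.819 CPM in parental cells to 34.7 in clone 1, 8.45 in clone 6 and 7.15 in the library labelled clone 5. Only clone 1 thus exceeded 10 CPM. Such a search always returns a gene, so being nearest does not by itself show a close match. ODC1, the ornithine decarboxylase, was the nearest to FOSL1 (0.370), with 360.2 CPM in the parental library and 257.2, 95.2 and 59.0 CPM in the clones. CBR3, a carbonyl reductase, was the nearest to JUN (0.0572), with 6.01 CPM in the parental library and 22.7, 12.9 and 18.3 CPM in the clones. PSENEN followed JUNB (0.0330), P4HA1 followed JUND (0.0176) and APOL2 followed FOSL2 (0.0236). The order of FOS, with the parental library lowest, then the library labelled clone 5, clone 6 and clone 1, was shared by FOSB, JUN and JUNB and by 5.73% of all genes tested. The order of FOSL1, with the parental library highest and then clone 1, the library labelled clone 5 and clone 6, was shared by 6.29% of genes tested, by 5 of the 13 bZIP genes (ATF3, BATF3, MAFK, BATF and MAFF) and by none of the 18 immediate-early genes.

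Of 33 listed AP-1 target genes, 31 were tested, and 8 of them met the criterion as lower and 1 as higher, where 9.58% of all genes met it in either direction. Their median log2 fold change was -0.10. VEGFA, the angiogenic growth factor, was at 1217 CPM in the parental library and 251.3, 205.1 and 261.6 CPM in the clones (-2.35, SE 0.32, adjusted p = 0.259). IL6, the inflammatory cytokine, was at 219.6 CPM in the parental library and 23.0, 11.6 and 5.51 CPM in the clones (-4.04, SE 0.79, adjusted p = 0.281). The clones lay far below the parental library for both. AREG, a ligand of the epidermal growth factor receptor, had 13.3 CPM in the parental library and 0.132 to 0.785 CPM in the clones, and the cytokine IL11 had 5.63 CPM and 0.445 to 0.882 CPM. LCN2, which encodes lipocalin-2, had 1783 parental counts but 29 in clone 1, 2 in clone 6 and 2 in the library labelled clone 5, the last 2 libraries being under a floor of 3 counts. The gene that was higher, named after its values were seen, was TIMP1, an inhibitor of metalloproteinases, at 170.4 CPM in the parental library and 480.4, 395.9 and 390.6 CPM in the clones (1.31, SE 0.31, adjusted p = 0.337). TGFB1 was at 241.9 CPM in the parental library and 348.8, 372.4 and 494.6 CPM in the clones (0.74, SE 0.35, adjusted p = 0.504). No target passed after adjustment in edgeR, whereas DESeq2 passed 5 as lower and 1 as higher. Of all 17710 genes adjusted by DESeq2, 3.05% passed as lower and 3.13% as higher. The relation of these targets to the levels of FOS, FOSB and JUN was not tested.

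**Figure D4:**
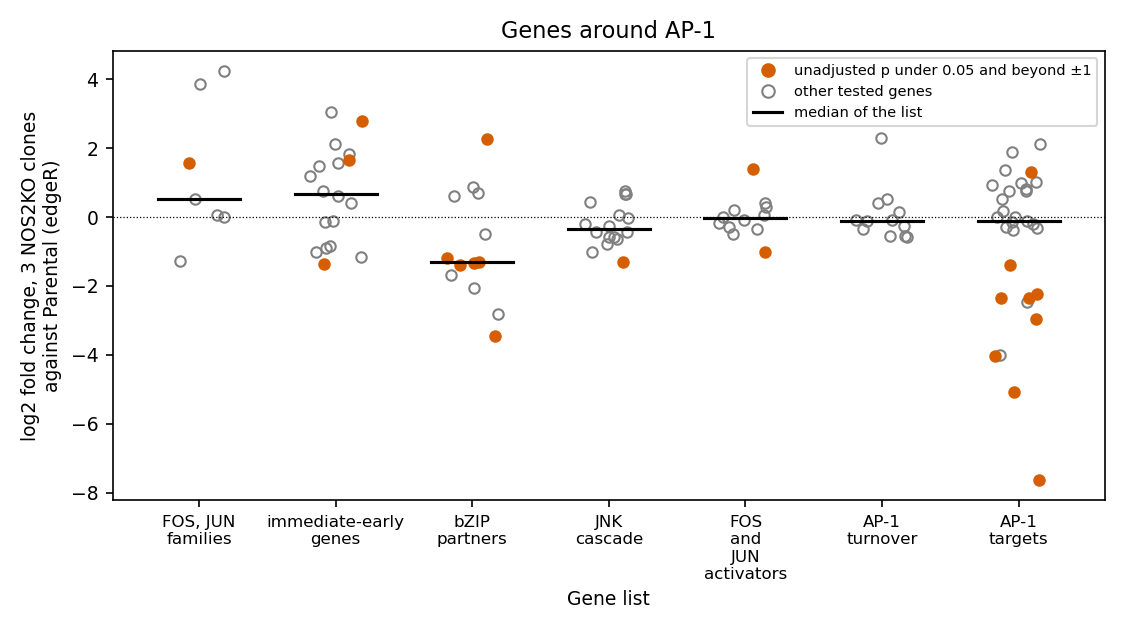
Log2 fold change of the 3 NOS2KO clones against Parental (edgeR) for the tested genes of 7 lists except MMP10. Genes beyond 1 or -1 at an unadjusted p under 0.05 are filled orange, and the list median is a black bar. MMP10, an AP-1 target without a finite SE, is not drawn but enters the median of its list. The bZIP partners have the lowest median, at -1.32, and the other immediate-early genes the highest, at 0.68.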

How the data were processed

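Poly(A)-enriched RNA of 4 SUM159 libraries was read as paired ends. The authors deposited raw counts per gene, not normalized. The submitters' processing notes list bcl2fastq 2.17, Trimmomatic 0.36, STAR 2.5.2b, featureCounts of Subread 1.5.2 and DESeq2, with GRCh38. The strand setting and annotation release are not given in the sources used here. Symbols came from GENCODE 29 (56898 of 57500 identifiers).

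Counts were fitted in R 4.3.3 with edgeR 4.0.16 (filterByExpr, TMM, glmQLFit, glmQLFTest), 3 clones against 1 parental library, with Benjamini-Hochberg adjustment over the 22511 genes kept (2 residual and 2.75 prior degrees of freedom). With 1 library against 3, the smallest p of an exact permutation test is 0.25. The criterion was a log2 fold change beyond 1 or -1 at an unadjusted p under 0.05. Ratios of a clone to the parental library carry exact (Clopper-Pearson) 95% intervals, which, like the floor of 3 counts (0.0246 to 0.0332 CPM), cover counting error only. TPM used the exon length in the deposited files. Sequences came from RefSeq tables. Figures were drawn in Python 3.11.15 with matplotlib 3.10.9. The code of the fits was first run on simulated counts. No detection rate at the dispersion of these data (common dispersion 0.319) is given here.

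The members, lists and tests were chosen with earlier results of these data known. Named were all members, in each list up to 5 genes that met the criterion with the smallest p, MAPK8, MAPK9, TGFB1 and LCN2, and the gene nearest to each member. Alternatives were scaling by RLE, by the upper quartile or by library size alone, no filter, a minimum of 10 CPM, DESeq2 1.42.0, robust estimation, the bias-adjusted quasi-likelihood method, a prior count of 2, each clone left out, and shares without length. Of the markers of other cell types, 1 further gene is not reported here.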

Additional observations from a re-analysis of the deposited data

How the results depend on the processing

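The direction of FOS, FOSB, FOSL1, JUN and JUNB held under every alternative run. Upper quartile scaling moved the median log2 fold change of all genes from 0.10 to 0.20, a shift of 0.10, and the members with it. The fold change of FOSL2 turned sign, to 0.0121 with RLE scaling, 0.10 with upper quartile scaling, 0.0094 without a filter, 0.0654 with a minimum of 10 CPM and 0.0121 with DESeq2, and lay between -0.1011 and 0.0531 when 1 clone was left out. With 1 clone left out, FOS lay between 2.76 and 4.36, FOSB between 2.86 and 4.74, JUNB between 0.25 and 0.74, as did the median of the members, each lowest without clone 1. The fold change of JUND then lay between -0.22 and 0.26, -0.22 without clone 1. DESeq2 passed 3 members after adjustment, where edgeR passed 0. Members that met the criterion as higher numbered 1, and were 3 without a filter, 2 with a minimum of 10 CPM, 3 with DESeq2, and 2 to 3 with 1 clone left out. As lower they were 0 to 1, 1 without clone 1. Members lower in every clone were 1 to 2, and by over 1 they were 0 to 1, both at the higher value without clone 1. Of the activators, 2 met the criterion, 1 with RLE scaling, 1 with upper quartile scaling, 1 with DESeq2, and 0 to 2 with 1 clone left out, 0 without clone 6. For mRNA and protein turnover the count was 0, 1 with DESeq2 and 0 to 1 with 1 clone left out, 1 without the library labelled clone 5. The immediate-early genes went from 3 to 5 with DESeq2 and were 4 to 6 with 1 clone left out, 6 without clone 1, and the JNK cascade was 1 to 3, 3 without clone 1. The share of all genes that met the criterion was taken for the main fit only (4.24% as higher and 5.34% as lower). The counts under the alternatives therefore have no such share beside them. The causes were not tested. In CPM shares without length, FOSL2 was the largest in the parental library (26.6%), JUN in the library labelled clone 5 (26.1%) and FOS in clone 6 (29.1%). Counting error at these depths was mostly small beside the spread between clones. An exception was FOSL2 in clone 1 over the library labelled clone 5, with a log2 ratio of -0.028 (95% counting interval -0.056 to 2e-04). The design with 1 parental library limits every test. No paired analysis was possible because the parental group has 1 library.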
